A study of Mus musculus with 17 samples.

Results

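Nuclear-encoded oxidative phosphorylation genes were followed in islet RNA-seq of 17 male mice. They were taken as the protein-coding genes whose symbol begins with Nduf, Uqcr, Atp5 or Cox plus a digit, with *Sdha* to *Sdhd*, *Cyc1* and *Cycs*. The rule found 105 gene identifiers with 104 symbols, of 78239 identifiers in the first count table and 73212 in the second. It used names and biotype only, and no measured value. By role, 7 identifiers belonged to the core of complex I, 29 to its accessory subunits, 8 to its assembly factors, 4 to complex II, 9 to complex III, 1 was cytochrome *c*, 20 belonged to complex IV, 9 to its assembly and 18 to ATP synthase. *Atp5o* held 2 identifiers, and the one at ENSMUSG00000116933 was at or near 0.

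Oxidative phosphorylation is how mitochondria turn fuel into ATP. Complex I and complex II pass electrons from NADH and succinate to ubiquinone, complex III hands them to cytochrome *c*, and complex IV passes them to oxygen, while complexes I, III and IV pump protons whose return drives ATP synthase. A few subunits are encoded by mitochondrial DNA and all others by nuclear genes. In β cells the ATP made from glucose closes the ATP-sensitive potassium channel, which leads to calcium entry and insulin release.

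The first table held islets of 3 wildtype and 3 *Pax4* R192H mice, aged 12 weeks, that ate standard chow (SCD), and of 3 wildtype and 3 *Pax4* R192H mice aged 16 weeks after 4 weeks of a high-fat diet (HFD). *Pax4* R192H mice are homozygous for an arginine-to-histidine change in their own *Pax4* gene, which encodes a transcription factor of β cell development. The second table held 2 control and 3 Pax4-BiKO mice aged 20 weeks after 8 weeks of HFD. Both carried floxed *Pax4* alleles and both were given tamoxifen, and Pax4-BiKO mice also carried the Pdx1-CreERT2 transgene, which drives Cre from the *Pdx1* promoter, active in β cells and some other pancreatic cells. The effects of Cre and of *Pax4* loss cannot be told apart, nor can those of diet and age in the first table. The labels call the samples biological replicates.

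Libraries of the first table summed to 24268157 to 42679645 counts, and those of the second to 28618835 to 31887537. *Pax4* was listed at 0 counts in all 17 libraries, so it checks no label here. The β cell markers were abundant, with summed levels from 44400 to 137000 CPM, which are counts scaled to library size. Acinar markers, which belong to the digestive enzyme cells around the islets, were also found in every library, with 26 of 26 tested in both tables. A pair of identifiers without a name in GENCODE M21 took from 36.2% to 53.3% of the first table's counts. The oxidative phosphorylation genes took from 0.359% to 0.527% of the counts there, and from 0.746% to 0.951% of those of the second table. In bulk islets, fewer cells of a type and less RNA per cell cannot be told apart.

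The promoters of 4 genes are printed, some because they were called and some because they show the searched motifs. The choice leans towards NRF1 matches and does not stand for the members. The window of *Cox5b*, the member called between diets in wildtype mice, held no match and is not printed. *Ndufa1* and *Atp5g1* were the members called between genotypes on the HFD. *Cycs* and *Cox6a1* recur in the comparisons and hold matches to NRF1, a regulator of many respiratory genes. Each window runs from 250 bases before to 50 bases after the RefSeq start in GRCm38.p6, 5′ to 3′ on the gene's strand, with every motif match in capitals. The windows are chrX:37191189-37191488, chr11:96075582-96075881, chr6:50566520-50566819 and chr5:115348909-115349208, all on the minus strand, in the order below.
Ndufa1: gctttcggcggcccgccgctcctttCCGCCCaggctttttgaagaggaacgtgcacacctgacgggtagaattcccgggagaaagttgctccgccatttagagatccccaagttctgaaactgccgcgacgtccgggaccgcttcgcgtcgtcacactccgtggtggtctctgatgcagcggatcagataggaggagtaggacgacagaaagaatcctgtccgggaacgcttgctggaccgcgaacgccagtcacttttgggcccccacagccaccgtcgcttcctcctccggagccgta
Atp5g1: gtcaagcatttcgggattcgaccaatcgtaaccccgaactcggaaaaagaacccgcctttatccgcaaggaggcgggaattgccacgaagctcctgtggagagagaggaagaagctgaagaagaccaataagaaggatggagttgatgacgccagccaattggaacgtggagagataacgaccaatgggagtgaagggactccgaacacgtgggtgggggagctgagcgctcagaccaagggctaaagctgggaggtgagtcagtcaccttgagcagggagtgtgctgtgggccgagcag
Cycs: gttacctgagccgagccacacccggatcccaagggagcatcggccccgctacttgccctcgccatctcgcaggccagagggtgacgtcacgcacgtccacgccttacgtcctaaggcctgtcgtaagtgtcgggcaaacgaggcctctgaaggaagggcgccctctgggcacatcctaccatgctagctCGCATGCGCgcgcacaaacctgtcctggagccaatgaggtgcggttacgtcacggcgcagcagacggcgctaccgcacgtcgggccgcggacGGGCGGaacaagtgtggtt
Cox6a1: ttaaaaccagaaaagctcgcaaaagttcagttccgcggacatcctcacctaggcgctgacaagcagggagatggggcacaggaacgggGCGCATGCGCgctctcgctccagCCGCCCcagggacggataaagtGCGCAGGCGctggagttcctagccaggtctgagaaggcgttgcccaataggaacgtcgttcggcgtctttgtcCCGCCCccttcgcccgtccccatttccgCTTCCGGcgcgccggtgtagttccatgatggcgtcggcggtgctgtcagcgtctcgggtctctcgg

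The capitals in *Ndufa1* mark 1 SP1 match, and *Atp5g1* held no match. *Cycs* held 1 NRF1 and 1 SP1 match. *Cox6a1* held 3 NRF1 matches, of which 2 overlap and are shifted by 1 base, with 2 SP1 matches and 1 ETS match. The searched letters on both strands were NRF1 GCGCANGCG, ETS (the family of GABPA) CCGGAAG, ERR TCAAGGTCA, SP1 GGGCGG and YY1 AANATGGCG. Promoter entries were found for 84 of the 104 symbols. NRF1 letters lay in 27.4% of them, against 9.63% of 17492 protein-coding genes and 6.25% of all 32851 windows. ETS letters were in 27.4%, against 12.9% and 8.86%, and YY1 letters in 14.3%, against 3.64% and 2.38%. ERR letters were rare, in 2.38% against 0.377% and 0.423%. SP1 letters were in 48.8%, against 49.2% and 35.7%. The member windows had a median GC content of 59.0%, against 52.7% over all windows, and no test was made. A match is a run of letters and no measured site.

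On the SCD, no member was called between genotypes. Of the 99 members that passed the filter on low counts in the first table, 0 were called by edgeR's quasi-likelihood test, where a call needs a Benjamini-Hochberg adjusted p below 0.05 and a log2 fold change above 0.5 in size. DESeq2 called 0 as well, against 0.104% of the genes to which it gave an adjusted p, and 0 members had an unadjusted p below 0.05. Across all 19137 tested genes 0% were called, so the count says nothing particular about these genes. The members' log2 fold changes ran from -0.38 to 0.31, with a median of -0.04 against 0.00 over all genes.

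On the HFD, *Ndufa1* and *Atp5g1* were higher in *Pax4* R192H than in wildtype islets. These were 2 of 99 tested members called higher, against 1.46% of all tested genes, and no member was called lower. In either direction 2.02% of the members were called, near the 2.28% of all tested genes, so the count says nothing particular about these genes. With library totals in place of TMM 1 member was called higher and 2 lower, beside 66 genes higher and 839 lower overall. DESeq2 called 11 of the 99 members to which it gave an adjusted p, 9 higher and 2 lower, against 5.39% of all such genes. *Ndufa1* encodes a small accessory subunit of complex I, and *Atp5g1* encodes a precursor of the ring subunit *c* of ATP synthase.

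*Ndufa1* (chromosome X, 37187588 to 37191163, minus strand) was at 22.2, 36.2 and 33.2 CPM in the 3 wildtype mice on the HFD. It was at 61.2, 67.1 and 52.3 CPM in the 3 *Pax4* R192H mice. On the SCD it was at 23.6, 23 and 22 CPM in wildtype and at 24.7, 19.7 and 24.7 CPM in *Pax4* R192H mice. All 3 *Pax4* R192H mice on the HFD thus lay above every other mouse of the table, and wildtype replicate 1 on the HFD lay among the SCD mice. The log2 fold change between genotypes on the HFD was 0.98 ± 0.17 (SE), with an adjusted p of 0.0119 by edgeR. It was 0.61 with library totals alone. The call was lost only with the acinar covariate and without *Pax4* R192H replicate 2. With the covariate the value was 0.95 (adjusted p = 0.515), in a fit that called 0 of all tested genes. Without replicate 2 it was 0.89 (adjusted p = 0.0649).

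*Atp5g1* (chromosome 11, 96068852 to 96075670, minus strand) was at 48.3, 74.9 and 63.5 CPM in wildtype mice on the HFD. It was at 95.6, 109 and 114 CPM in *Pax4* R192H mice on the HFD, and between 36.8 and 50 CPM in the 6 mice on the SCD. Again the 3 *Pax4* R192H mice on the HFD stood above all others. The log2 fold change was 0.77 ± 0.17 (SE), adjusted p = 0.0376 by edgeR. This call was less firm, since it was lost with library totals (0.41, adjusted p = 0.167) and with the acinar covariate (0.96, adjusted p = 0.471). The same held with only these 2 groups in the model (0.75, adjusted p = 0.0533) and with the replicate block (0.77, adjusted p = 0.0911). It was also lost without wildtype replicate 1 or 3 or without *Pax4* R192H replicate 1, 2 or 3, with adjusted p between 0.0805 and 0.132.

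**Figure D1:**
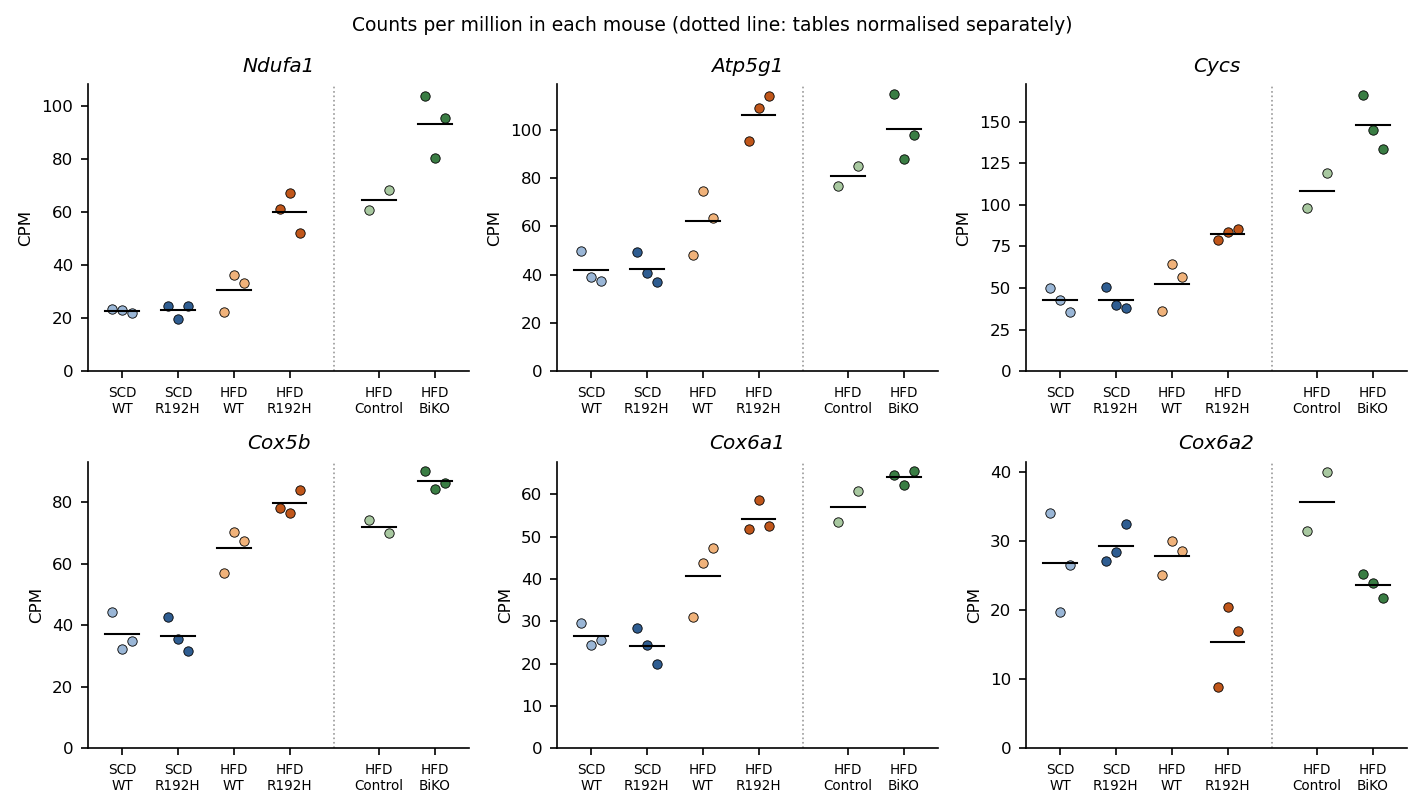
CPM (counts scaled to library size, linear axes from 0) of 6 genes in each mouse, by group; points are mice, bars are group means, and the dotted line separates 2 tables that were normalised separately. *Ndufa1* and *Atp5g1* are highest in the 3 *Pax4* R192H mice on the HFD among the mice of the first table, while *Cox6a2* is lowest in 2 of them, at 8.91 and 17 CPM.

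Over the whole group, the log2 fold changes on the HFD sat above those of other genes. The median was 0.30 against -0.01 over all tested genes, and 91 of 99 members were above 0. With library totals alone the members' median turned to -0.08 and that of all genes to -0.402, a distance of 0.323 that was nearly the one found after TMM, 0.318. At an unadjusted p below 0.05, 42 members were higher and 2 lower, beside 1706 and 1335 of all genes. These 44 became 17 without wildtype replicate 1, 18 without *Pax4* R192H replicate 2, 28 without *Pax4* R192H replicate 3 and 8 with library totals. In 43 members the 3 *Pax4* R192H mice lay above the 3 wildtype mice without overlap, against 13% of all tested genes, and in 2 they lay below, against 9.89%.

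Complex III and complex IV had the highest role medians among roles of more than 1 gene, at 0.38 each. *Uqcrq*, a small ubiquinone-binding subunit of complex III, was at 17.1, 27 and 22.6 CPM in wildtype and at 36.5, 40.6 and 38.8 CPM in *Pax4* R192H mice, with no overlap. Its log2 fold change of 0.80 ± 0.20 (SE) just missed the threshold, adjusted p = 0.0502 by edgeR, while DESeq2 called it higher (adjusted p = 0.00522). *Cycs*, the electron carrier between complexes III and IV, was at 36, 64.4 and 56.8 CPM against 78.8, 83.8 and 85.7 CPM. Its log2 fold change was 0.66 ± 0.20 (SE) with an adjusted p of 0.0992 by edgeR, while DESeq2 called it higher (adjusted p = 0.0291). The accessory subunits of complex I had a median of 0.32, those of ATP synthase 0.31 and the core of complex I 0.26, where values ran from 0.09 for *Ndufs7* to 0.38 for *Ndufv2*. All 17 tested genes of ATP synthase, all 29 accessory genes, all 7 core genes and all 9 genes of complex III were above 0 after TMM.

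The medians of complex II, at 0.09, and of the assembly factors of complex I were the lowest among the roles. *Sdha*, *Sdhb*, *Sdhc* and *Sdhd*, which also serve the citric acid cycle, had log2 fold changes of 0.07, 0.32, 0.11 and 0.04, and all 4 were below 0 with library totals. The 8 assembly factors of complex I had a median of -0.01 and the 9 of complex IV one of 0.17. *Ndufaf6*, an assembly factor of complex I, had a log2 fold change of -0.92 ± 0.25 (SE), adjusted p = 0.0743 by edgeR, while DESeq2 called it lower (adjusted p = 0.0313). The assembly factors that the naming rule leaves out, such as *Surf1* and *Bcs1l*, had a median of 0.11, with 0 of 36 called.

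The 2 genes for subunit 6A of complex IV had values of opposite sign, but neither was called by edgeR and the difference between them was not tested. *Cox6a1* is the form of most tissues and *Cox6a2* that of heart and muscle. *Cox6a2* was at 25, 30 and 28.6 CPM in wildtype and at 8.91, 20.4 and 17 CPM in *Pax4* R192H mice on the HFD. All 3 *Pax4* R192H mice lay below the wildtype mice, by -0.86 ± 0.25 (SE) on the log2 scale, but the adjusted p was 0.0982 by edgeR. DESeq2 called it lower, adjusted p = 0.0174, as did edgeR with library totals, at -1.22 (adjusted p = 0.0267). The value of *Cox6a2* was -0.36 with the acinar covariate (adjusted p = 0.847) and -0.58 without *Pax4* R192H replicate 1, the mouse with the highest acinar markers. *Cox6a1* was at 30.9, 43.8 and 47.4 CPM in wildtype and at 51.7, 58.7 and 52.4 CPM in *Pax4* R192H mice, a log2 fold change of 0.41 with an adjusted p of 0.235. Per kilobase of exon, *Cox6a1* had a mean of 95.1 CPM and *Cox6a2* one of 22.7 CPM in *Pax4* R192H mice on the HFD, against 71.3 and 41 CPM in wildtype mice on the HFD.

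**Figure D2:**
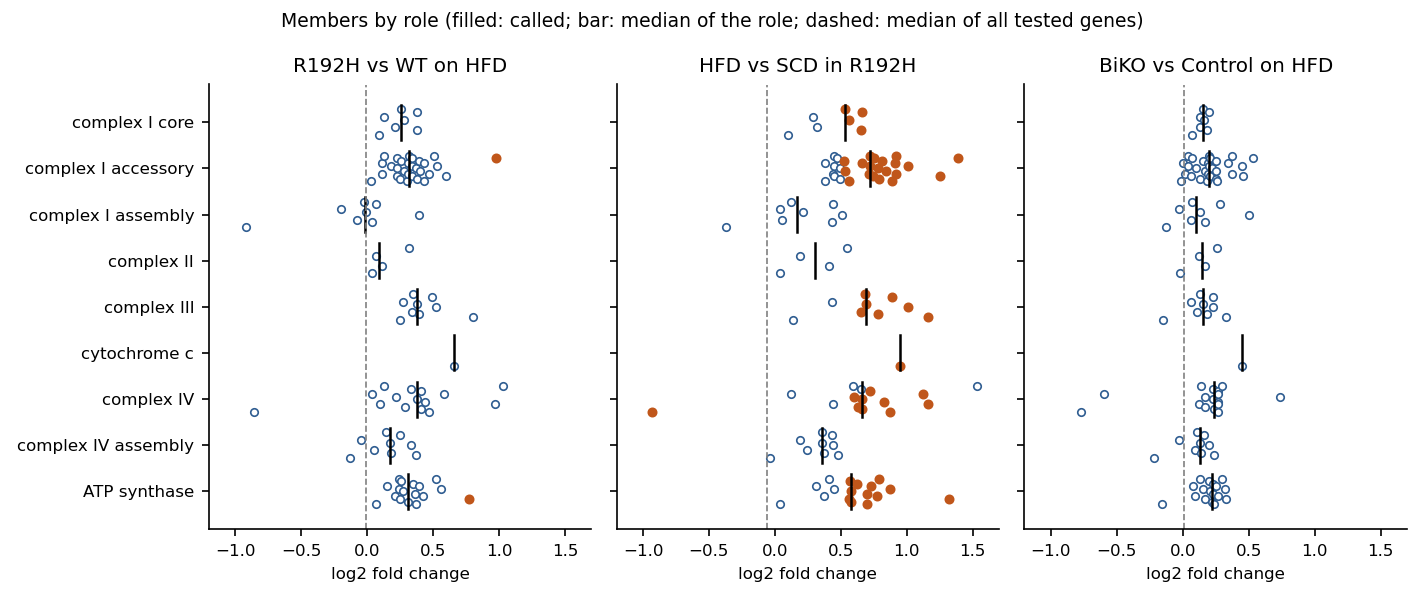
Log2 fold change (horizontal axis) of each tested member by role in 3 comparisons; filled points were called, open points were not, solid bars are role medians and dashed lines the median of all tested genes. Fold changes are after TMM, and with library totals alone the members' medians in the first and second panels turned to -0.08 and -0.17 while their distance to all genes stayed. *Cox6a2* stands to the left in all 3 panels, at -0.86, -0.93 and -0.60.

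Several other measures moved with this comparison. All 26 acinar markers were above 0, with a median log2 fold change of 1.53 and 9 called. Their summed level was between 43900 and 116000 CPM in *Pax4* R192H mice on the HFD and between 19000 and 29600 CPM in wildtype mice on the HFD. Cytoplasmic ribosomal protein genes had a median of 0.50, all 81 above 0 and 6 called, and mitochondrial ribosomal protein genes one of 0.24, with 0 of 78 called. The 8 β cell markers had a median of -0.02, with 4 above and 4 below 0, and only *Slc2a2*, the glucose transporter of β cells, was called, lower at -1.28 (adjusted p = 0.00588). Of these 8 markers 3 were lower and 1 higher at an unadjusted p below 0.05. Without overlap 3 were lower and 1 higher, against 9.89% and 13% of all tested genes. The 6 islet endocrine markers had a median of 0.32 with 0 called, and the 7 duct markers one of 0.38 with 3 at an unadjusted p below 0.05, 3 higher without overlap and 0 called. When the mean acinar level entered the model, 0 members and 0 of all 19137 genes were called, and the members' median was 0.46. The part of these measures in the members' values was not tested.

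The members were also short genes, and short genes as a class sat high on the HFD. The exon length of the members had a median of 1021 bp, against 3359 bp over the tested protein-coding genes. Other protein-coding genes of up to 600 bp had a median log2 fold change of 0.44, those above 600 and up to 1000 bp one of 0.29, those above 1000 and up to 2000 bp one of 0.17, and those over 4000 bp one of -0.13. The 14, 31 and 36 members in the 3 shorter ranges had medians of 0.33, 0.35 and 0.28. Set against other genes of its own length range, the median member was 0.09 higher, in place of 0.32 against all genes, and 66 of 99 were above. *Ndufa1*, with 419 bp, was 0.54 above its range, *Cycs* 0.62 and *Uqcrq* 0.63, whereas *Cox6a1* was 0.03 below and *Cox6a2* 1.15 below. The lengths are unions over annotated transcripts, so that *Atp5g1*, at 4912 bp, may be placed too far up. The part of gene length was not tested.

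**Figure D3:**
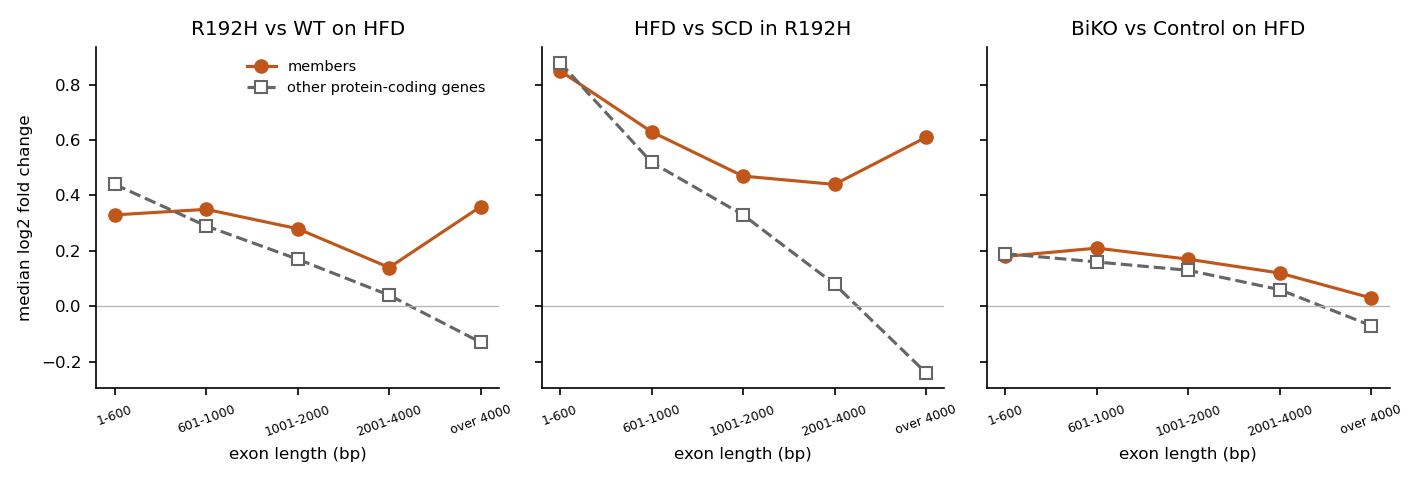
Median log2 fold change by exon length (bp, 5 ranges) of the oxidative phosphorylation genes (filled circles) and of other protein-coding genes (open squares) in 3 comparisons. Medians are after TMM; the longest range holds only 4 members, and in the shortest range other genes reach 0.44, 0.88 and 0.19, beside 0.33, 0.85 and 0.18 for the members.

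Whether the genotype effect differed between diets was asked with the interaction of genotype and diet. edgeR called 0 of 99 members, against 0.131% of all tested genes, although 25 members had an unadjusted p below 0.05, 23 of them higher. These 25 became 5 with library totals, 10 without SCD wildtype replicate 1 or HFD wildtype replicate 1, 12 without SCD *Pax4* R192H replicate 2, and 9 and 14 without HFD *Pax4* R192H replicates 2 and 3, and 38 without HFD wildtype replicate 2. DESeq2 called 1, *Ndufa1*, at 0.96 with an adjusted p of 0.0242, against 1.56% of all genes by the same tool. In edgeR *Ndufa1* was at 0.97 ± 0.24 (SE), adjusted p = 0.134, *Cycs* at 0.66, adjusted p = 0.391, and *Cox6a2* at -0.99, adjusted p = 0.307. The members' median was 0.34 against -0.01 over all genes, and -0.12 with library totals. Set against genes of their own length range it was 0.04, in place of 0.35 against all genes. Acinar markers had a median of 1.72, with 25 of 26 at an unadjusted p below 0.05 and 0 called. Macrophage and lymphocyte markers had one of 0.66, with 7 of 7 above 0 and 2 at an unadjusted p below 0.05, and cytoplasmic ribosomal protein genes one of 0.57, with 66 of 81 at that level, and 0 were called in either list. Without the filter on low counts edgeR called 4 members, beside 1.78% of all genes, among them *Ndufa1* (adjusted p = 0.00304) and *Cox6a2* (adjusted p = 0.00358), so these calls rest on the filter and the tool.

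In wildtype islets, *Cox5b* was higher on the HFD than on the SCD. It encodes a nuclear-encoded subunit of complex IV. It was at 44.3, 32.2 and 34.9 CPM on the SCD and at 57.1, 70.5 and 67.5 CPM on the HFD, with all HFD mice above all SCD mice. The log2 fold change was 0.81 ± 0.15 (SE), adjusted p = 0.0465 by edgeR. It was the 1 member called, against 0.204% of all tested genes called higher, and 25 members had an unadjusted p below 0.05, all of them higher. That number was 5 with library totals, between 14 and 16 without SCD wildtype replicate 2 or 3 or HFD wildtype replicate 2 or 3, 41 without SCD wildtype replicate 1 and 49 without HFD wildtype replicate 1. The *Cox5b* call was lost with library totals (0.53, adjusted p = 0.126), the replicate block (0.82, adjusted p = 0.1) and the acinar covariate (0.82, adjusted p = 0.063). The same held with only these 2 groups in the model (0.8, adjusted p = 0.175). It was also lost without SCD wildtype replicate 2 or 3 or HFD wildtype replicate 2 or 3, and 5 members were called without HFD wildtype replicate 1, beside 0.62% of all genes. Other values were 0.68 for *Ndufa3* (adjusted p = 0.0936), an accessory subunit of complex I, and 0.61 for *Cox6a1* (adjusted p = 0.118) and 0.60 for *Cox8a* (adjusted p = 0.0774), both of complex IV. DESeq2 called 7 members, these 3 among them, against 2.94% of all genes. The members' median was 0.23 against 0.01 over all genes, and -0.05 with library totals. Set against genes of their own length range it was 0.08, in place of 0.22 against all genes. Cytoplasmic ribosomal protein genes had a median of 0.23 with 0 of 81 called, and β cell markers one of 0.31 with 7 of 8 above 0 and 0 called. Acinar markers had a median of 0.15 and 0 of 26 were called. Macrophage and lymphocyte markers had a median of -0.99, with 2 of 7 called lower, endothelial and stromal markers had one of -0.31 with 0 of 9 called, and duct markers one of -0.66 with 0 of 7 called. Their part in the members' values was not tested.

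In *Pax4* R192H islets, more members were called between diets than in the other 5 comparisons. On the HFD 53 of 99 members were called higher, against 9.75% of all tested genes, and 1 was called lower, against 5.91%. DESeq2 called 56 of 100, against 17.6% of all genes. The members' median was 0.57 against -0.06 over all genes. With library totals these became -0.17 and -0.789, with 3 members called higher and 13 lower, beside 339 higher and 8600 lower among all tested genes, so the direction of the group holds relative to other genes and not in shares of all reads. In 82 members the 3 HFD mice lay above the 3 SCD mice, against 21.3% of all tested genes.

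The members called by edgeR lay in the complexes that make up the proton-pumping chain and ATP synthase. In complex I, 20 of 29 accessory and 4 of 7 core genes were called higher. In complex III it was 7 of 9, in complex IV 9 of 15, with 1 lower, and in ATP synthase 12 of 17, and *Cycs* was called as well. By edgeR 0 of 4 were called in complex II, and 0 of 8 and 0 of 9 among the assembly factors of complexes I and IV, with 2, 1 and 4 higher at an unadjusted p below 0.05. DESeq2 called *Sdhc* of complex II higher, at 0.54 (adjusted p = 0.0363). These 3 roles are small, and the assembly factors also had lower levels. In HFD *Pax4* R192H replicate 1, those of complexes I and IV had means of 2.58 and 3.24 log2 CPM, against 5.04 for the accessory subunits. Whether the roles differ was not tested.

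*Ndufa1* had the highest fold among the called members, at 1.39 ± 0.17 (SE), adjusted p = 0.00032 by edgeR. *Ndufa3* reached 1.25, *Ndufc2* 1.01, and *Ndufb7* and *Ndufa2* 0.92 each, all accessory subunits of complex I. The called core subunits of complex I had smaller folds, with 0.66 for *Ndufv1*, 0.65 for *Ndufs3*, 0.56 for *Ndufs8* and 0.53 for *Ndufv2*, and these 4 values lay below 0 with library totals.

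In complex III, *Uqcrq* rose by 1.16 (adjusted p = 0.00197), *Uqcr11* by 1.01 and *Uqcrh* by 0.89, all small subunits. *Cyc1*, the haem-bearing cytochrome c1, rose by 0.65 (adjusted p = 0.0081), and its value was -0.09 with library totals. *Cycs* was at 50.5, 39.7 and 37.9 CPM on the SCD and at 78.8, 83.8 and 85.7 CPM on the HFD, a change of 0.95 with an adjusted p of 0.00583.

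In complex IV, *Cox6a1* rose by 1.16 (adjusted p = 0.000866), *Cox5b* by 1.12 (adjusted p = 0.000493), *Ndufa4* by 0.87 and *Cox8a* by 0.83. *Cox6a2* was the 1 member called lower. It was at 27.1, 28.4 and 32.4 CPM on the SCD and at 8.91, 20.4 and 17 CPM on the HFD, with no overlap. Its log2 fold change was -0.93 ± 0.25 (SE), adjusted p = 0.0235 by edgeR, and -1.64 with library totals. With the acinar covariate it was -0.28 (adjusted p = 0.8). The call was also lost, with adjusted p between 0.0549 and 0.0759, without SCD replicate 2 or 3 or without HFD replicate 1 or 3, and its value was -0.65 without HFD replicate 1. In wildtype mice *Cox6a2* was at 34, 19.7 and 26.5 CPM on the SCD and 25, 30 and 28.6 CPM on the HFD, which overlap.

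In ATP synthase, *Atp5g1* rose by 1.32 (adjusted p = 0.000488), *Atp5k* by 0.87, *Atp5o* by 0.79 and *Atp5d* by 0.77. In complex II the values were 0.19 for *Sdha*, 0.41 for *Sdhb*, 0.55 for *Sdhc* and 0.04 for *Sdhd*, none of them called by edgeR. With library totals *Ndufa1* at 0.65 and *Atp5g1* at 0.59 stayed called higher, as did *Ndufa3* at 0.51, while *Sdhd* was at -0.69 and *Sdha* at -0.55, both with adjusted p below the threshold.

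Other lists moved with the same comparison. Of the cytoplasmic ribosomal protein genes 73 of 81 were called higher, with a median of 0.77, and of the mitochondrial ones 28 of 78, with a median of 0.46. Of the assembly factors outside the naming rule 9 of 36 were called higher, among them *Sdhaf1* at 0.88 and *Surf1* at 0.60. Of the 6 islet endocrine markers 2 were called higher, with a median of 0.52, and of the 8 β cell markers 3 were called higher and 1 lower, with values from -1.34 to 1.17. Of the duct markers 1 of 7 and of the endothelial and stromal markers 1 of 9 was called higher. Among 13 regulators of mitochondrial biogenesis 0 were called higher and 1 was called lower. This was *Lrpprc*, whose protein stabilises mitochondrial mRNAs, at -0.69 (adjusted p = 0.00382) here and at -0.64 (adjusted p = 0.0257) between genotypes on the HFD.

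The mRNAs made from mitochondrial DNA, which encode the remaining subunits, had medians below 0 in all 5 group comparisons and above 0 for the interaction, and their difference from the nuclear genes was not tested. In *Pax4* R192H mice 12 tested mitochondrial mRNAs had a median of -0.12 between diets, and 1, *mt-Nd3*, was called higher at 0.92. Their median was also -0.12 between genotypes on the HFD, where 0 were called and 0 had an unadjusted p below 0.05. It was -0.21 between genotypes on the SCD, with 10 of 12 below 0 and 3 lower at an unadjusted p below 0.05, -0.30 between diets in wildtype mice and 0.29 for the interaction, where 9 of 12 were above 0.

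Acinar markers stood apart between these diets too. Of 26 markers 24 were called higher in *Pax4* R192H mice on the HFD, with a median of 1.84. Their mean level was between 9 and 10.4 log2 CPM on the HFD and between 7.48 and 7.88 on the SCD. With that mean as a covariate 0 members were called, beside 0.12% of all genes, and the members' median was 0.79. Short genes moved as well, since other protein-coding genes of up to 600 bp had a median of 0.88, beside 0.85 for the 14 members of that length. Set against their own length range the members' median was 0.13, in place of 0.63 against all genes. Neither measure's part in the result was tested.

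**Figure D4:**
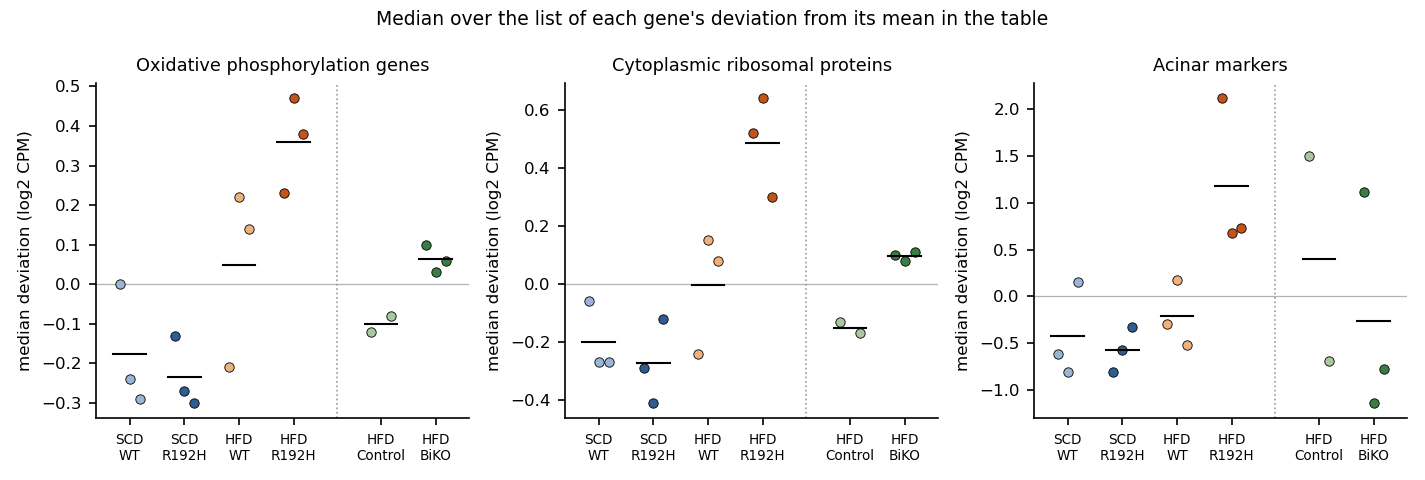
Median, over the genes of a list, of each gene's deviation from its mean in the table (log2 CPM), for each mouse; points are mice, bars are group means, and the dotted line separates the 2 tables. After TMM the 3 *Pax4* R192H mice on the HFD lie highest in all 3 lists of the first table, the oxidative phosphorylation genes at 0.23, 0.47 and 0.38. With library totals the members' median log2 fold changes turned in sign in the first table and not in the second.

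Mouse by mouse, the members' median deviation was 0.00, -0.24 and -0.29 in SCD wildtype mice and -0.13, -0.27 and -0.30 in SCD *Pax4* R192H mice. It was -0.21, 0.22 and 0.14 in HFD wildtype mice and 0.23, 0.47 and 0.38 in HFD *Pax4* R192H mice. HFD wildtype replicate 1 lay among the SCD mice, and without it the members' median between genotypes on the HFD was 0.18 in place of 0.30.

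In Pax4-BiKO islets, edgeR after the filter on low counts called none of these genes against controls, and their median was slightly above that of all genes. It called 0 of 100 tested members, against 0.0893% of all 20167 tested genes, with 36 higher and 1 lower at an unadjusted p below 0.05. These 37 became 9 without control replicate 1, 19 without control replicate 2, 21 without Pax4-BiKO replicate 1 and 15 with library totals. DESeq2 called 2 of 97, *Ndufa1* higher (adjusted p = 0.00521) and *Cox6a2* lower (adjusted p = 0.00585), a share near the 2.04% of all genes that it called. Without the filter edgeR called the same 2 genes, at adjusted p = 6.84e-05 and 0.000124, beside 1.8% of all genes. The members' median was 0.18 against 0.01 over all genes, 90 of 100 were above 0, and it was 0.19 with library totals. In 63 members the 3 Pax4-BiKO mice lay above the 2 controls, against 15.9% of all tested genes, and in 6 they lay below, against 16.7%.

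*Ndufa1* was at 60.8 and 68.5 CPM in controls and at 104, 80.4 and 95.4 CPM in Pax4-BiKO mice, a log2 fold change of 0.53 ± 0.12 (SE) with an adjusted p of 0.209 by edgeR. *Cycs* was at 98.2 and 119 CPM against 166, 145 and 134 CPM, 0.45 on the log2 scale (adjusted p = 0.26). *Cox6a2* was at 31.4 and 39.9 CPM against 25.2, 23.9 and 21.7 CPM, -0.60 ± 0.13 (SE) on the log2 scale (adjusted p = 0.177). The groups did not overlap in any of these 3 genes.

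Other members spanned -0.77 to 0.74 in Pax4-BiKO islets. *Cox6a1* was at 0.17, *Atp5g1* at 0.32, *Uqcrb*, a subunit of complex III, at 0.33, and *Sdhb* at 0.26. *Cyc1* was at -0.15 and *Atp5d* at -0.16, where they were at 0.38 and 0.24 between genotypes on the HFD in the first table, or -0.01 and -0.14 with library totals, and neither gene was called by edgeR in either comparison. *Ndufa4l2*, a relative of *Ndufa4* known to be induced in low oxygen, was at 1.12 and 1.33 CPM in controls and at 1.8, 2.27 and 2.05 CPM in Pax4-BiKO mice, a log2 fold change of 0.74 with an adjusted p of 0.337. In the first table *Ndufa4l2* was at 1.07, 0.307 and 0.912 CPM in wildtype and at 1.47, 1.68 and 1.57 CPM in *Pax4* R192H mice on the HFD, 1.03 on the log2 scale (adjusted p = 0.241). *Cox7a1*, the muscle form of another subunit of complex IV, passed the filter in the second table alone and was below 1 CPM in all 5 mice there, with a log2 fold change of -0.77 (adjusted p = 0.437).

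Summed over the list, acinar markers overlapped between the groups of the second table, while 1 of 26, *Prss1*, was higher in Pax4-BiKO mice without overlap, at 4.06 (adjusted p = 0.269). Their median log2 fold change was -0.68, and their mean level was 10.5 and 8.24 log2 CPM in controls and 10.3, 7.94 and 8.3 in Pax4-BiKO mice. Of the 8 β cell markers 4 were lower and 1 higher at an unadjusted p below 0.05, with 0 called and a median of -0.22. Without overlap 4 were lower and 2 higher, against 16.7% and 15.9% of all tested genes. Endothelial and stromal markers had a median of 0.29, with 8 of 9 above 0, 3 higher without overlap and 0 called. Cytoplasmic ribosomal protein genes had a median of 0.26, with all 81 above 0 and 0 called. Mitochondrial mRNAs had a median of -0.45, with 11 of 13 below 0 and 0 called. Other protein-coding genes of up to 600 bp had a median of 0.19, and set against their own length range the members' median was 0.05, in place of 0.17 against all genes. The part of these measures was not tested.

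Levels differed widely among members. Per kilobase of exon, *Atp5l*, *Atp5b* and *Cox7a2l* were highest in both tables, with means over groups of 190 CPM for *Atp5b* and 145 CPM for *Cox7a2l* in the first table. *Cox6b2*, *Cox7b2*, *Cox8b* and *Cox8c*, which are known from testis or muscle, did not pass the filter in either table. *Cox4i2*, the lung form of subunit 4, was between 0.0382 and 1.32 CPM over all 17 mice. It had the highest fold of any member between diets in *Pax4* R192H mice, 1.53 ± 0.68 (SE), but was not called (adjusted p = 0.137), and *Cox4i1* had group means between 72.6 and 173 CPM. Among 13 processed pseudogenes that bear the same name stems, counts came to between 0.0813% and 0.245% of the members' counts, so few of the reads were assigned to such copies. *Ndufb1-ps*, which GENCODE M21 labels a lncRNA and which was left out by that label, was at 22 to 40.9 CPM in the first table.

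Among the 53 members called higher between diets in *Pax4* R192H mice, 47 had a promoter entry and 31.9% of these held NRF1 letters. Among the 46 other tested members, 33 had one and 24.2% held them. ETS letters were in 25.5% and 33.3%, and SP1 letters in 38.3% and 63.6%. These shares are descriptions of few genes and were not tested.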

How the data were processed

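RNA was read from islets of 17 mice in 2 tables. Per the submitters' processing notes and the study's methods, the authors aligned the reads to mm10 with STAR 2.7.1, estimated genes with RSEM 1.3.3 and deposited expected counts, which carry no normalisation and share reads among similar copies by estimate. The annotation release is not given in the sources used here.

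Expected counts were rounded to whole numbers. Names and positions came from GENCODE M21 (GRCm38), which matched 65.8% of identifiers in the first table and 66.7% in the second, and promoters from the RefSeq table of GRCm38.p6. Each table was normalised on its own by TMM, so that levels were not compared between tables. Genes passing filterByExpr (minimum count 10) were tested with edgeR 4.0.16 in R 4.3.3 by the two-sided quasi-likelihood F-test, with 1 coefficient per group and Benjamini-Hochberg adjustment over all tested genes. A gene was called where the adjusted p was below 0.05 and the log2 fold change above 0.5 in size. A prior count of 2 entered log2 CPM. The study's tool, DESeq2 (1.42.0), was an alternative. TMM factors ran from 0.692 to 1.30 in the first table, against 0.934 to 1.05 in the other. In the first table they differed by group. They were 0.692, 0.695 and 0.823 in HFD *Pax4* R192H mice, 1.11, 0.89 and 0.9 in HFD wildtype mice, and between 1.05 and 1.30 in SCD mice. A floor of 3 counts was between 7.03e-06% and 1.24e-05% of a library and covers counting error only. The fits were tested on simulated data.

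The members and all gene lists were chosen with earlier results of these data known. Named genes were the called members, the most positive and most negative member of each role on the HFD and in Pax4-BiKO, pairs of isoforms, complex II, *Cyc1*, *Cycs*, and the members highest and lowest per kilobase. *Ndufv1*, *Ndufs8*, *Cox8c*, *Slc2a2*, *Lrpprc*, *mt-Nd3*, *Prss1*, *Ndufb1-ps* and the assembly factors outside the naming rule were named after their values were seen. Alternatives were other scalings and filters, the replicate block, an acinar covariate, fewer groups and leaving out each mouse. Removal of acinar and ribosomal protein genes before scaling and the comparison by exon length were added after seeing the data.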

Additional observations from a re-analysis of the deposited data

How the results depend on the processing

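The fold changes of members depended on the scaling. With library totals in place of TMM the members' medians turned to -0.08 between genotypes on the HFD, -0.12 for the interaction, -0.05 between diets in wildtype mice and -0.17 between diets in *Pax4* R192H mice, because the medians of all genes moved to -0.402, -0.471, -0.259 and -0.789. The distance of the members to all genes stayed at 0.323, 0.347, 0.205 and 0.622. Members called were then 3 between genotypes on the HFD, 1 higher and 2 lower, 0 between diets in wildtype mice and 16 in *Pax4* R192H mice. The shares of all tested genes called in these fits were 4.73%, 1.87% and 46.7%. Without a filter on low counts 12, 4, 9 and 2 members were called between genotypes on the HFD, for the interaction, between diets in wildtype mice and in Pax4-BiKO, beside 3.21%, 1.78%, 2.32% and 1.8% of all genes, and with DESeq2 11, 1, 7 and 2. Requiring 10 counts in every sample gave 4 of 97 on the HFD, beside 4.61% of all genes. With the acinar covariate 0 were called on the HFD, 0 between diets in wildtype and 0 in *Pax4* R192H mice, while the medians of the interaction and of the diets in *Pax4* R192H mice were 0.52 and 0.79. With only the compared groups in the model 0 were called between diets in wildtype mice. The cause was not tested for these.

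The replicate numbers were not taken to pair the mice, since the labels name no pairing. Deviations of same-numbered mice correlated between -0.296 and 0.193 in the first table, with 5 of 18 pairs over 0.1. Those of differently numbered mice lay between -0.309 and 0.402, with 10 of 36. In the second table the ranges were 0.0382 to 0.0729 and -0.0729 to 0.0382. Deviations from the mean of 2 or 3 mice depend on each other, so these values cannot settle the pairing. With the replicate block 1 member was called between genotypes on the HFD, 0 between diets in wildtype mice and 50 in *Pax4* R192H mice, beside 0.768%, 0.115% and 12.3% of all genes, and 0 in the other comparisons.

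Leaving out 1 mouse at a time gave between 0 and 4 called members between genotypes on the HFD, with 0 without *Pax4* R192H replicate 2 and 4 without wildtype replicate 2, beside 0.458% to 2.45% of all genes. It gave between 0 and 5 between diets in wildtype mice, beside 0.0246% to 0.62%, between 37 and 52 in *Pax4* R192H mice, beside 8.38% to 11.2%, and 0 in the other comparisons. The medians ran from 0.18 to 0.37 on the HFD, from 0.22 to 0.41 for the interaction, from 0.15 to 0.36 and from 0.52 to 0.66 between diets in wildtype and *Pax4* R192H mice, from 0.16 to 0.21 in Pax4-BiKO and from -0.09 to 0.06 between genotypes on the SCD.

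Of 1052 values of single genes 914 kept direction and side of the threshold, 40 came to pass it, 75 no longer passed and 23 reversed. On the HFD library totals reversed *Sdha* to -0.3, *Sdhb* to -0.05, *Sdhc* to -0.25, *Sdhd* to -0.34, *Cox5b* to -0.08, *Cyc1* to -0.01, *Atp5d* to -0.14 and *Ndufs7* to -0.28. Leaving out 1 mouse moved *Sdha* from -0.01 to 0.19, *Sdhc* from -0.03 to 0.26, *Sdhd* from -0.07 to 0.11 and *Ndufs7* from -0.05 to 0.19, with each lowest value without wildtype replicate 1, and *Sdhd* was also at -0.06 without *Pax4* R192H replicate 2. Between diets in *Pax4* R192H mice library totals reversed *Ndufs3* to -0.09, *Ndufv1* to -0.08, *Ndufs8* to -0.17, *Ndufv2* to -0.19, *Cyc1* to -0.09, *Sdha* to -0.55, *Sdhb* to -0.32, *Sdhd* to -0.69 and *Sdhc* to -0.19, and leaving out 1 mouse moved *Sdhd* from -0.05, without HFD replicate 2, to 0.11. RLE factors and removal of the 2 most abundant genes changed no count of called members, nor did removal of acinar and ribosomal protein genes in the 5 comparisons of the first table, where alone it was run. *Cox6b2*, *Cox7b2*, *Cox8b* and *Cox8c* did not pass the filter on low counts, so the main fits say nothing about them.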

Other observations

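*Ndufb1-ps*, left out of the members by its annotated biotype, was not called in any of the 6 comparisons, with log2 fold changes between -0.13 and 0.42 by edgeR. Between genotypes on the HFD its value was 0.32 (adjusted p = 0.375), next to the median of 0.32 over the accessory subunits of complex I.

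Among the assembly factors outside the naming rule, 9 were called higher between diets in *Pax4* R192H mice. *Cmc2*, which serves complex IV assembly, was at 1.06 on the log2 scale, *Pet100* at 0.86, *Higd2a* at 0.72 and *Coa3* at 0.67. *Uqcc2* and *Uqcc3*, which serve complex III assembly, were at 0.62 and 0.57, and *Timmdc1*, which serves complex I assembly, was at 0.62. The 17 assembly factors that the naming rule holds, for complexes I and IV, had 0 called by edgeR in the same comparison, with 5 at an unadjusted p below 0.05. Whether the 2 sets of assembly factors differ was not tested.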
